A study of Mus musculus with 16 samples.

Results

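Dendritic cells and macrophages take up glycans and microbes through C-type lectins, and 5 genes for such receptors were followed here: *Cd209a*, *Cd209b*, *Cd209d*, *Cd209e* and *Mrc1*. They are 5 of the 19938 mouse genes that had an array probe set of their own, and each has 1 such probe set (10576784, 10576816, 10576807, 10576799 and 10469358, in the order named). CD209 (DC-SIGN in human) is a calcium-dependent receptor of DCs that binds mannose- and fucose-bearing glycans, and the mouse carries a cluster of homologs of it. *Cd209a* is the homolog known from mouse DCs, *Cd209b* (SIGN-R1) is known from marginal zone macrophages of the spleen, and *Cd209d* (SIGN-R3) and *Cd209e* (SIGN-R4) are further homologs. *Mrc1* encodes the mannose receptor CD206, an endocytic receptor of macrophages and some DCs that is widely used as a marker of macrophages exposed to interleukin-4. The genes were chosen by measured values, since differences between vehicle-treated IkL/L and WT cells were known for *Cd209d* in CDPs and *Mrc1* in MDPs. Those differences are therefore given without a test. Whether the arrays of GSI-treated cells also entered the choice is not recorded, and the p values below carry that limit. Comparisons of GSI with vehicle reuse the vehicle arrays, so their p values and ranks are not independent of the choice. In CDPs, arrays with the same replicate number deviated together (r from 0.348 to 0.658 between groups). Between the treatments, r was 0.476 in WT MDPs and -0.02 in IkL/L MDPs. In CDPs and in WT MDPs the GSI-treated arrays are thus not fully separate from the vehicle-treated ones either.

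The cells were CD45.2+ monocyte-dendritic cell progenitors (MDPs), which give rise to monocytes and DCs, and common DC progenitors (CDPs), purified from bone marrow of IkL/L mice, which have a hypomorphic allele of the zinc finger transcription factor Ikaros, or of WT mice. Each population was kept for 24 h with unfractionated CD45.1+ bone marrow cells and Flt3L-conditioned medium. The cultures held either the γ-secretase inhibitor Compound E at 5 µM (GSI), which blocks the cleavage that activates Notch receptors, or its vehicle DMSO. CD45.2+ cells were then sorted again, and RNA was amplified and hybridized to Affymetrix Mouse Gene ST arrays. The 8 groups of 2 arrays each are thus GSI-treated IkL/L CDPs, vehicle-treated IkL/L CDPs, GSI-treated WT CDPs, vehicle-treated WT CDPs, and the same 4 for MDPs. MDP and CDP name the cells put into culture, and the stage of the recovered cells was not sorted for. In such bulk RNA, fewer cells of a type and less RNA per cell cannot be told apart.

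The promoters of the 5 genes are shown because 4 of the genes were called in at least 1 comparison below and *Cd209b* in none. Each window runs from 250 bases before to 50 bases after the start given by RefSeq on GRCm38.p6, and is printed 5′ to 3′ on the strand of the gene. Capitals mark AGGAAG, a core that the myeloid factor PU.1 is known to bind, read on either strand (CTTCCT on the other). The windows are chr8:3748935-3749234 for *Cd209a*, chr8:3926792-3927091 for *Cd209b*, chr8:3878450-3878749 for *Cd209d* and chr8:3854237-3854536 for *Cd209e*, all on the minus strand, and chr2:14229164-14229463 on the plus strand for *Mrc1*.
Cd209a: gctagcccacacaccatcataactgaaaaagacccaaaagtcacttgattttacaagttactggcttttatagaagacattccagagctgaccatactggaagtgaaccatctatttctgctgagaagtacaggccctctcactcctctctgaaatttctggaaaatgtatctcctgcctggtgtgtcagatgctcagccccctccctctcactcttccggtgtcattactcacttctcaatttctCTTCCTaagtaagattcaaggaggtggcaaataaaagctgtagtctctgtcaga
Cd209b: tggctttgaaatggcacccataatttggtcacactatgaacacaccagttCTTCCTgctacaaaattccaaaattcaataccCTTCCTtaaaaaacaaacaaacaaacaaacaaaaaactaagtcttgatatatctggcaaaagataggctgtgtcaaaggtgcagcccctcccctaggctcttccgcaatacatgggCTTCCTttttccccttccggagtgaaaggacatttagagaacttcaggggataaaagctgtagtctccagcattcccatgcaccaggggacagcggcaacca
Cd209d: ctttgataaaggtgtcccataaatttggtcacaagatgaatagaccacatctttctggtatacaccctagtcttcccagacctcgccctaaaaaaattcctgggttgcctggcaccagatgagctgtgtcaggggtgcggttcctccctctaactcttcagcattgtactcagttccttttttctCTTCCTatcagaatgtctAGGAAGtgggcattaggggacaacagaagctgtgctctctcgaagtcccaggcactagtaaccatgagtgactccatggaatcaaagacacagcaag
Cd209e: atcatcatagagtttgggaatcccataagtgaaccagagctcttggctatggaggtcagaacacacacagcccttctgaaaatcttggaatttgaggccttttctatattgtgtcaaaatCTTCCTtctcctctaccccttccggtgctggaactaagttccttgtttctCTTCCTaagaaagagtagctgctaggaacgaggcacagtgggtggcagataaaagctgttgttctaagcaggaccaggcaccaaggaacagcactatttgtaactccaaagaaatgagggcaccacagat
Mrc1: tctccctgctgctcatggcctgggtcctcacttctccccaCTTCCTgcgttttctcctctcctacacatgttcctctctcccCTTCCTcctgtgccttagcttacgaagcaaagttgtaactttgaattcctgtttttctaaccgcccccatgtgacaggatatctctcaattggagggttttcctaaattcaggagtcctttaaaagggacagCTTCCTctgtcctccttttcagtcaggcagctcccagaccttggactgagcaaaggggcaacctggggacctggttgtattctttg
AGGAAG was found in the windows of 5 of the 5 genes, against 35.4% of 32851 mouse promoter windows of the same length. The homologs *Cd209a*, *Cd209d* and *Cd209e* share a run of 12 bases that holds this core, so the 5 windows are not independent. GGGAA, a core bound by Ikaros, was found in 3 of the 5 (*Cd209b*, *Cd209d* and *Cd209e*), against 62.7% of all windows. TGGGAA, the core bound by RBPJ, the DNA-binding partner of Notch, contains GGGAA and was found in the same 3 windows, against 25.6% of all. Both strands were searched. *Cd209a* and *Cd209e* shared the run tttctcttcctaag, which 2 of all the windows held. *Cd209a* and *Cd209b* shared the run ataaaagctgtagtctc, which was also held by 2 windows, although the signal of one of the pair varied widely and that of the other hardly at all. The signal that hardly varied, that of *Cd209b*, was below every array median. These matches describe letters in the windows and are not evidence of binding.

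Across genes, which are not independent replicates, the 2 arrays of a group had an r between 0.983 and 0.996, and array medians ran from 4.52 to 4.65 on the log2 scale of the deposited signal. Of the lists of cell type genes, the neutrophil, cDC and monocyte and macrophage lists moved with genotype in at least 1 stage. That is, the list means of all IkL/L arrays of the stage lay above those of all its WT arrays. The list of tissue-resident and marginal zone macrophages did too, and that of T and NK cells by little. The T and NK mean ran from 3.99 to 4.14 in IkL/L and from 3.84 to 3.95 in WT CDPs, below every array median. In MDPs, the pDC list and the MDP and CDP list separated by genotype only within each treatment. The mean log2 signal of 18 neutrophil genes ran from 8.48 to 9.73 in IkL/L CDPs and from 7.22 to 8.54 in WT CDPs, and from 9.31 to 9.84 in IkL/L MDPs and from 8.50 to 8.80 in WT MDPs. In MDPs, the mean of 19 cDC genes ran from 6.49 to 7 in IkL/L and from 5.74 to 6.05 in WT arrays. That of 21 monocyte and macrophage genes ran from 7.88 to 8.11 in IkL/L and from 7.31 to 7.70 in WT MDPs. In CDPs the monocyte and macrophage mean differed between the 2 arrays of each group. Arrays 1 and 2 were at 8.45 and 7.54 (IkL/L with GSI), 8.43 and 7.68 (IkL/L with vehicle), 8.13 and 6.87 (WT with GSI), and 8.33 and 7.62 (WT with vehicle). The part of this spread in the results below was not tested. The 10 MDP and CDP genes, among them *Flt3* and *Csf1r*, moved with GSI in their mean signal, though not every gene did in each population. Their mean ran from 8.63 to 8.67 with GSI and from 8.98 to 9.14 with vehicle in IkL/L CDPs, and from 8.28 to 8.69 with GSI and from 8.82 to 8.92 with vehicle in WT CDPs. In MDPs it ran from 8.44 to 8.79 with GSI and from 8.94 to 9.01 with vehicle in IkL/L cells, and from 8.36 to 8.41 with GSI and from 8.76 to 8.77 with vehicle in WT cells. In GSI-treated cells the genotype comparisons called 1 of 19 cDC genes in CDPs and 2 in MDPs, and 1 of 9 B cell genes (*Fcer2a*) in CDPs and 0 in MDPs (also 0 at an unadjusted p under 0.05). They called 0 pDC, T and NK cell, erythroid or MDP and CDP genes by limma, with 6 of 15, 3 of 10, 0 of 5 and 1 of 10 at an unadjusted p under 0.05 in CDPs.

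**Figure D1:**
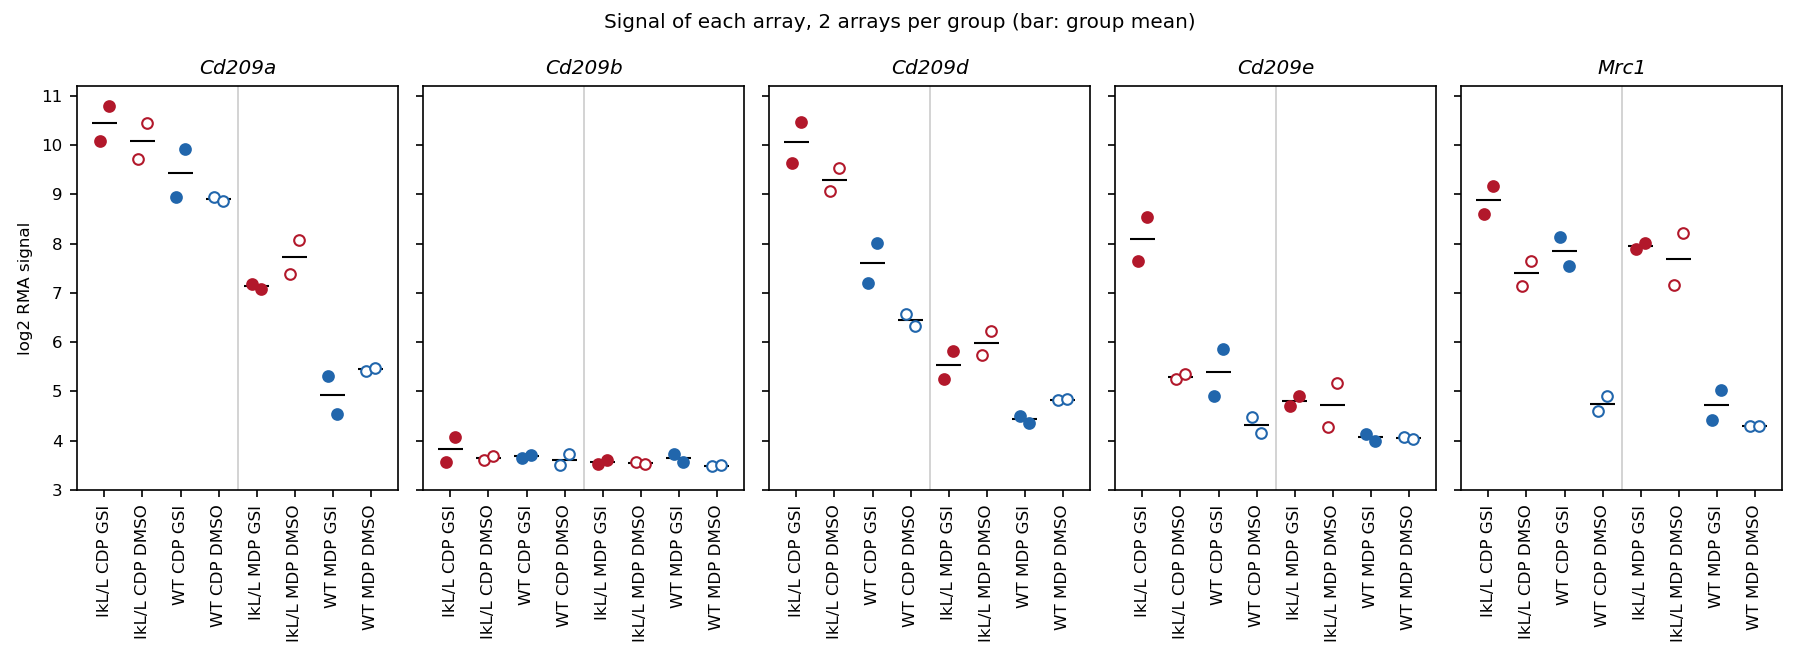
Log2 RMA signal of the 5 genes (vertical axis, 1 panel per gene) in each array of the 8 groups (horizontal axis); filled points are GSI-treated cells, open points vehicle-treated cells, red IkL/L, blue WT, and the black bar is the mean of the 2 arrays. *Cd209a* and *Cd209d* step down between CDPs and MDPs, *Mrc1* has 5 groups above 7 and 3 groups below 5.1, *Cd209e* is above 7.6 in GSI-treated IkL/L CDPs alone, and *Cd209b* stays between 3.48 and 4.08.

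*Mrc1* was high in all IkL/L groups and in 1 WT group, the GSI-treated CDPs. Its log2 signal was 8.59 and 9.17 in GSI-treated IkL/L CDPs, 7.15 and 7.64 in vehicle-treated IkL/L CDPs, 8.13 and 7.55 in GSI-treated WT CDPs, and 4.60 and 4.91 in vehicle-treated WT CDPs. In MDPs it was 7.90 and 8.01 in GSI-treated IkL/L cells, 7.15 and 8.22 in vehicle-treated IkL/L cells, 4.41 and 5.03 in GSI-treated WT cells, and 4.30 and 4.31 in vehicle-treated WT cells. By group mean, GSI-treated IkL/L CDPs came first. GSI-treated IkL/L MDPs, GSI-treated WT CDPs, vehicle-treated IkL/L MDPs and vehicle-treated IkL/L CDPs followed, and in that order each overlapped with the next. Vehicle-treated WT CDPs and GSI-treated WT MDPs, which also overlapped with each other, lay over 2 log2 units lower, with vehicle-treated WT MDPs last.

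*Cd209a* was ordered by stage before genotype. Its log2 signal was 10.09 and 10.80 in GSI-treated IkL/L CDPs, 9.71 and 10.46 in vehicle-treated IkL/L CDPs, 8.95 and 9.93 in GSI-treated WT CDPs, and 8.95 and 8.87 in vehicle-treated WT CDPs. In MDPs it was 7.19 and 7.09 in GSI-treated IkL/L cells, 7.39 and 8.07 in vehicle-treated IkL/L cells, 5.32 and 4.54 in GSI-treated WT cells, and 5.41 and 5.48 in vehicle-treated WT cells. All 4 CDP groups were above all 4 MDP groups. The first 3 of the CDP groups overlapped in turn, GSI-treated and vehicle-treated WT CDPs were separated by under 0.01, and neighboring MDP groups did not overlap.

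*Cd209d* was graded over the whole range. Its log2 signal was 9.63 and 10.48 in GSI-treated IkL/L CDPs, 9.06 and 9.53 in vehicle-treated IkL/L CDPs, 7.21 and 8.02 in GSI-treated WT CDPs, and 6.57 and 6.32 in vehicle-treated WT CDPs. In MDPs it was 5.25 and 5.82 in GSI-treated IkL/L cells, 5.73 and 6.23 in vehicle-treated IkL/L cells, 4.51 and 4.37 in GSI-treated WT cells, and 4.83 and 4.85 in vehicle-treated WT cells. Only vehicle-treated and GSI-treated IkL/L MDPs, neighbors in the order of the group means, overlapped with each other.

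*Cd209e* was high in a single group. Its log2 signal was 7.64 and 8.55 in GSI-treated IkL/L CDPs, 5.25 and 5.35 in vehicle-treated IkL/L CDPs, 4.92 and 5.86 in GSI-treated WT CDPs, and 4.48 and 4.16 in vehicle-treated WT CDPs. In MDPs it was 4.71 and 4.90 in GSI-treated IkL/L cells, 4.28 and 5.17 in vehicle-treated IkL/L cells, 4.15 and 3.99 in GSI-treated WT cells, and 4.08 and 4.04 in vehicle-treated WT cells. GSI-treated WT CDPs and vehicle-treated IkL/L CDPs came next in order and overlapped. The remaining groups lay at or below 5.17.

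*Cd209b* ran from 3.48 to 4.08 over all 16 arrays. Its highest value, 4.08, came from 1 array of GSI-treated IkL/L CDPs, whose other array was at 3.57. The remaining arrays lay between 3.48 and 3.72. All 16 lay below every array median, and without a measure of background it cannot be told whether *Cd209b* was detected. Levels of different genes are not set against each other, since probe sets differ in how they report RNA.

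In vehicle-treated cells, the comparison that chose the genes, the mean log2 difference between IkL/L and WT CDPs was 2.85 for *Cd209d* (7.22-fold), 2.64 for *Mrc1* (6.24-fold), 1.18 for *Cd209a*, 0.98 for *Cd209e* and 0.03 for *Cd209b*. In MDPs it was 3.38 for *Mrc1* (10.4-fold), 2.28 for *Cd209a* (4.86-fold), 1.14 for *Cd209d*, 0.66 for *Cd209e* and 0.05 for *Cd209b*. These values are descriptions only. The *Mrc1* signal of vehicle-treated WT MDPs, 4.30 and 4.31, lay below every array median, and without a measure of background its fold may be only a lower bound. Over all genes, 1.18% passed an adjusted p of 0.05 in CDPs and 0.105% in MDPs.

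GSI-treated cells form a second set of arrays in which IkL/L and WT cells can be compared. In CDPs, 2 of the 5 genes rose in IkL/L cells, against 2.15% of all genes called in either direction. *Cd209e* was higher by 2.71 on the log2 scale (6.54-fold, SE 0.36, 95% CI 1.90 to 3.52, adjusted p = 0.00381 from limma), with means of 8.10 in IkL/L and 5.39 in WT cells. *Cd209d* was higher by 2.44 (5.44-fold, SE 0.33, adjusted p = 0.00423), with means of 10.06 in IkL/L and 7.61 in WT cells. The arrays of the 2 genotypes did not overlap for either gene, and both calls held when any 1 of the 16 arrays was left out. *Mrc1* (log2 difference 1.04, 95% CI 0.25 to 1.82, adjusted p = 0.259) and *Cd209a* (1.01, 0.14 to 1.87, adjusted p = 0.355) did not pass. Their arrays did not overlap either, but for 2 arrays against 2 that is an exact permutation p of 0.333. *Cd209b* differed by 0.14 (adjusted p = 0.929). A fit of the 4 arrays alone, which leaves fewer degrees of freedom, called none of the 5. The neutrophil genes moved with genotype in the same arrays, where 5 of 18 rose, and their part in these differences was not tested.

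In MDPs, *Mrc1* rose in GSI-treated IkL/L cells, and it was 1 of 5 against 0.115% of all genes called. Its mean was 7.95 in IkL/L and 4.72 in WT MDPs, a log2 difference of 3.23 (9.39-fold, SE 0.35, 95% CI 2.45 to 4.02, adjusted p = 0.00719). The call was lost without array 1 or 2 of GSI-treated IkL/L MDPs (adjusted p = 0.0785 and 0.112), without array 1 of GSI-treated WT MDPs (adjusted p = 0.0964) and in a fit of the 4 arrays alone. *Cd209a* was 2.21 higher (4.63-fold, 95% CI 1.34 to 3.08, adjusted p = 0.0919), *Cd209d* 1.10 higher (adjusted p = 0.486) and *Cd209e* 0.74 higher (adjusted p = 0.774). None of these passed the test. Their arrays did not overlap, and the share of all genes without overlap was not counted. *Cd209b* differed by -0.07. Other gene groups moved in the same comparison. Of 19 cDC genes 2 rose, *H2-Ab1* (18.4-fold, adjusted p = 0.00379) and *Cd74* (10.8-fold, adjusted p = 0.0165), both of the MHC class II pathway, and 7 had an unadjusted p under 0.05. Of 18 neutrophil genes 1 rose, and 20 of 21 monocyte and macrophage genes had a higher mean with 0 called by limma (3 at an unadjusted p under 0.05), and their part was not tested.

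**Figure D2:**
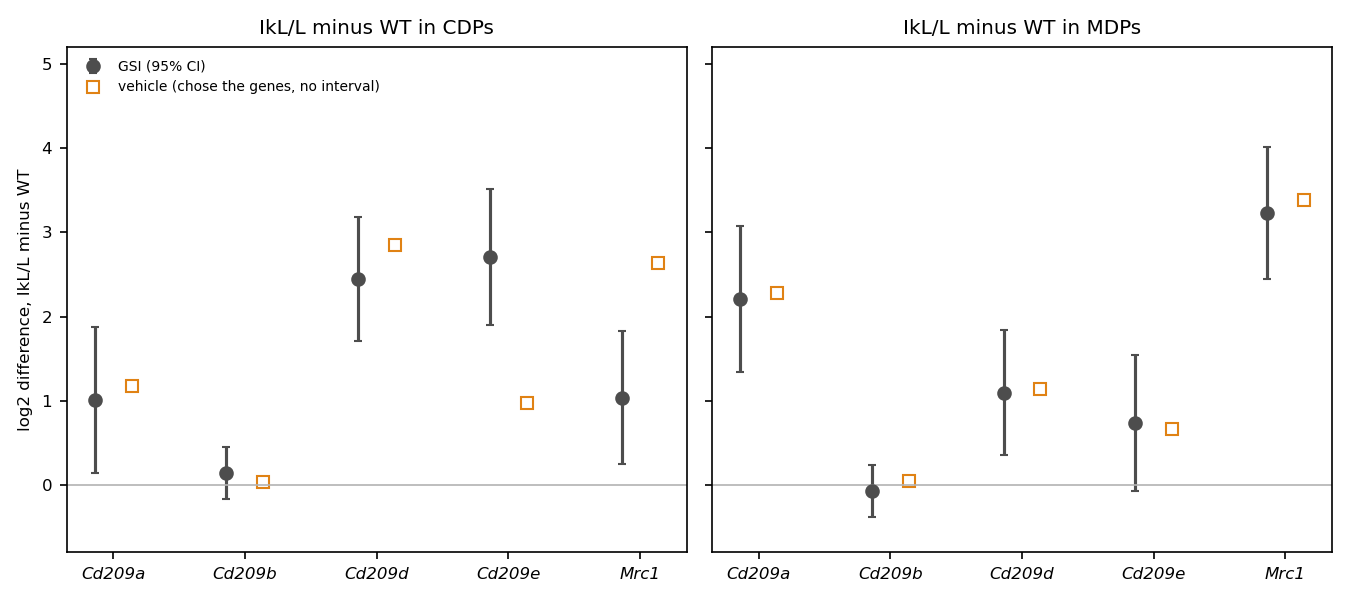
Log2 difference between IkL/L and WT cells (vertical axis) for the 5 genes (horizontal axis) in CDPs (left) and MDPs (right); filled circles are GSI-treated cells with the 95% CI of the fit, open squares vehicle-treated cells, whose differences chose the genes and have no interval. In CDPs *Cd209e* is at 2.71 with GSI and 0.98 with vehicle, *Mrc1* is at 1.04 with GSI and 2.64 with vehicle, and in MDPs the 2 treatments lie within 0.15 of each other for every gene.

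Whether the genotype difference depended on stage was tested in GSI-treated cells. CDPs minus MDPs, it was -2.19 for *Mrc1* (95% CI -3.31 to -1.08, adjusted p = 0.219), 1.97 for *Cd209e* (0.83 to 3.11, adjusted p = 0.355), 1.34 for *Cd209d* (adjusted p = 0.764) and -1.21 for *Cd209a*. None of the 5 passed by limma (0.231% of all genes did), and 3 had an unadjusted p under 0.05, as did 921 of the 19938 genes. Between treatments, the genotype difference in CDPs was 1.73 log2 units larger with GSI than with vehicle for *Cd209e* and smaller for *Mrc1* (-1.60), *Cd209d* (-0.41) and *Cd209a* (-0.17). In MDPs these changes ran from -0.15 for *Mrc1* to 0.07 for *Cd209e*. They hold the vehicle arrays that chose the genes and were not tested.

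GSI treatment was set against vehicle within each population, in a comparison that shares its vehicle arrays with the one that chose the genes. *Mrc1* rose in WT CDPs, to a mean of 7.84 with GSI, against 4.75 with vehicle (log2 difference 3.09, 8.51-fold, SE 0.35, 95% CI 2.30 to 3.88, adjusted p = 0.0445). It ranked 1 of 19938 genes by p there, and only *Hfe*, which encodes a regulator of iron uptake, also passed (0.01% of all genes, which is 2). The call was lost when any 1 of 14 arrays was left out (adjusted p from 0.0670 to 0.304), the exceptions being the vehicle-treated IkL/L MDPs, and with repeated quantile normalization, array medians subtracted, array weights or a fit of the 4 arrays. The log2 difference itself kept between 2.80 and 3.38 without each array. In the same arrays the mean of the 10 MDP and CDP genes was lower with GSI. Of the 10, 2 were higher with GSI and 0 were called by limma, and their part was not tested.

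In IkL/L CDPs the largest difference among the 5 genes was that of *Cd209e*, 2.79 higher with GSI (6.93-fold, SE 0.36, 95% CI 1.99 to 3.60, adjusted p = 0.0778). It ranked 3 of 19938 genes, of which 1, *Cyp1b1*, passed (0.00502%). *Cd209e* passed when array 1 of GSI-treated IkL/L CDPs (adjusted p = 0.0193), either array of GSI-treated WT CDPs (0.0315) or either array of vehicle-treated IkL/L MDPs (0.0489) was left out, and with the replicate number as a block (0.0365). The mean of the MDP and CDP genes was lower with GSI here too, with 1 of 10 genes higher, and their part was not tested. *Mrc1* was 1.48 higher (adjusted p = 0.523) and *Cd209d* 0.76 higher, without overlap of arrays. In WT CDPs *Cd209d* and *Cd209e* were 1.17 and 1.06 higher, with unadjusted p of 0.00533 and 0.0147 and adjusted p of 0.999 for both.

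In MDPs no gene of the 19938 was called with GSI in either genotype by limma (0%), while 522 in IkL/L and 1350 in WT MDPs had an unadjusted p under 0.05. *Mrc1* was 0.27 higher in IkL/L MDPs (95% CI -0.52 to 1.05) and 0.42 higher in WT MDPs (-0.37 to 1.20). The GSI effect on *Cd209a* was -0.59 in IkL/L and -0.52 in WT MDPs, and that on *Cd209d* was -0.44 in IkL/L and -0.40 in WT MDPs. In WT MDPs the GSI-treated arrays of *Cd209a* and *Cd209d* lay below the vehicle-treated ones, and in WT CDPs above them.

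The GSI effects of CDPs and of MDPs were set against each other after the data had been seen. CDPs minus MDPs, the GSI effects differed by 2.71 for *Cd209e* in IkL/L cells (95% CI 1.57 to 3.85) and by 2.67 for *Mrc1* in WT cells (1.56 to 3.78). No gene of all tested passed in either genotype (0% each, with 278 and 479 at an unadjusted p under 0.05). *Cd209e* in IkL/L cells and *Mrc1* in WT cells were among those.

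Averaged over the 4 populations, *Mrc1* was 1.32 higher with GSI (2.49-fold, SE 0.18, 95% CI 0.92 to 1.71, adjusted p = 0.0209) and ranked 17 of 19938. It was 1 of the 5 genes called, against 0.306% of all genes. *Cd209e* was 0.99 higher (adjusted p = 0.0629), and *Cd209d*, *Cd209b* and *Cd209a* were at 0.27, 0.11 and -0.06. An exact two-sided permutation test that exchanged treatments within populations gave an unadjusted p of 0.0108 for *Mrc1* and 0.0293 for *Cd209e*. The smallest p it can give is 0.00154. Without 1 of 6 arrays the call of *Mrc1* was lost (adjusted p from 0.0575 to 0.0884). These were both arrays of vehicle-treated IkL/L CDPs, both of GSI-treated IkL/L MDPs, array 2 of GSI-treated IkL/L CDPs and array 1 of vehicle-treated WT MDPs. *Cd209e* passed without array 1 of GSI-treated IkL/L CDPs (0.0406), array 1 of GSI-treated WT CDPs (0.0327) or array 2 of vehicle-treated IkL/L MDPs (0.0463), and with the replicate number as a block (0.0253). These p values rest in part on the vehicle arrays that chose the genes. The mean over populations combines effects of unequal size, as the plot of GSI effects shows.

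**Figure D3:**
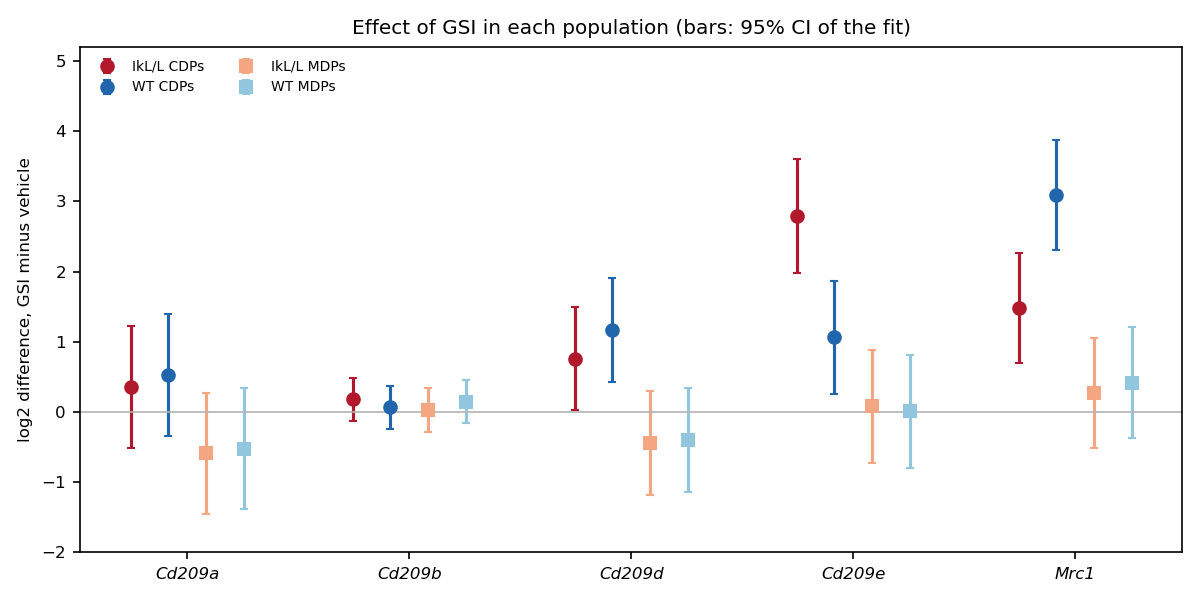
Log2 difference between GSI-treated and vehicle-treated cells (vertical axis) for the 5 genes (horizontal axis) in the 4 populations; circles are CDPs, squares MDPs, and bars the 95% CI of the fit of all 16 arrays. *Mrc1* in WT CDPs (3.09) and *Cd209e* in IkL/L CDPs (2.79) stand above the rest, and *Cd209a* and *Cd209d* are above 0 in CDPs and below 0 in MDPs of both genotypes.

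Cells from CDPs carried more *Cd209a* and *Cd209d* than those from MDPs. With GSI, 3 of the 5 genes rose in IkL/L CDPs (2.42% of all genes were called). *Cd209d* was 4.52 higher (22.9-fold, SE 0.33, adjusted p = 1.11e-04), *Cd209a* 3.31 higher (9.90-fold, SE 0.39, adjusted p = 0.0017) and *Cd209e* 3.29 higher (9.78-fold, SE 0.36, adjusted p = 0.00107). *Mrc1* was 0.93 higher (adjusted p = 0.301). These 3 calls held when any 1 array was left out.

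In GSI-treated WT cells, *Cd209a* was 4.51 higher in CDPs (22.8-fold, adjusted p = 0.00138), *Cd209d* 3.17 higher (9.03-fold, adjusted p = 0.00423) and *Mrc1* 3.12 higher (8.70-fold, adjusted p = 0.00661). These were 3 of 5 genes, against 0.176% of all. The *Cd209d* signal of GSI-treated WT MDPs, 4.51 and 4.37, lay below every array median, and without a measure of background its fold may be only a lower bound. *Mrc1* lost its call without array 1 of GSI-treated WT MDPs (adjusted p = 0.101), and a fit of the 4 arrays alone called none of the 3. *Cd209e* was 1.32 higher (adjusted p = 0.269).

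With vehicle, the arrays are those that chose the genes, and the differences between stages are given as descriptions. In IkL/L cells *Cd209d* was 3.32 higher in CDPs than in MDPs (9.96-fold) and *Cd209a* 2.36 higher (5.12-fold), where 1.71% of all genes were called. In WT cells *Cd209a* was 3.46 higher (11.0-fold) and *Cd209d* 1.61 higher (3.05-fold), where 0.0953% of all genes were called. For *Mrc1* the difference was -0.29 in vehicle-treated IkL/L and 0.45 in vehicle-treated WT cells. Genes of cDCs also moved with stage, and their part was not tested. The mean of 19 cDC genes ran from 7.01 to 7.95 in CDP arrays and from 5.74 to 7 in MDP arrays.

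*Cd209a*, *Cd209e*, *Cd209d* and *Cd209b* lie next to each other on chromosome 8 in that order, with *Fcer2a* and *Clec4g* on one side and *Cd209c*, *Cd209f* and *Cd209g* on the other. Of these 5 neighbors, 2 rose in vehicle-treated IkL/L CDPs and 1 in GSI-treated ones, and 0 fell, against 1.18% and 2.15% of all genes called. *Fcer2a*, which encodes the low-affinity IgE receptor CD23, was at 4.83 and 4.91 in GSI-treated IkL/L CDPs, against 3.89 and 3.91 in GSI-treated WT CDPs (log2 difference 0.97, adjusted p = 0.0105), and its difference with vehicle was 1.54 (adjusted p = 9.33e-04). *Clec4g*, a lectin known from sinusoidal endothelium, was at 6.24 and 6.74 in GSI-treated IkL/L CDPs, against 4.98 and 5.62 in GSI-treated WT CDPs (1.19, adjusted p = 0.0628) and differed by 1.39 with vehicle (adjusted p = 0.0444). *Cd209c* was 0.72 higher in GSI-treated IkL/L CDPs than in WT CDPs without passing (adjusted p = 0.329), and rose in GSI-treated IkL/L CDPs against MDPs (log2 difference 1.44, adjusted p = 0.0217). *Cd209f* and *Cd209g* lay between 3.16 and 3.80 in every array. These values, and those of *Fcer2a* in GSI-treated WT CDPs, were below every array median, so whether the genes were detected there cannot be told. In chromosomal order *Cd209b* thus lay between *Cd209d* and *Cd209c*, which were both called between stages in GSI-treated IkL/L cells. The flat signal of *Cd209b* was below every array median, so whether it was detected cannot be told. Whether transcripts of similar homologs bound the same probes was not tested.

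**Figure D4:**
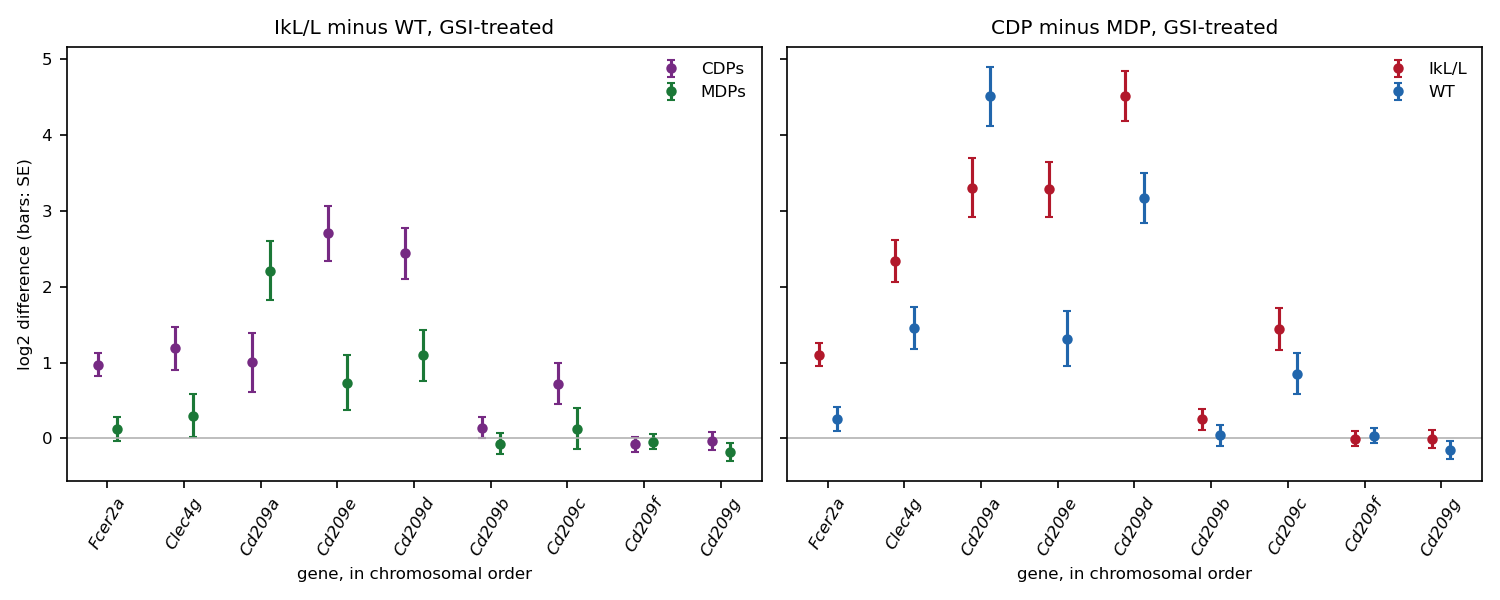
Log2 differences of the 9 genes of the *Cd209* cluster in chromosomal order (horizontal axis, not to scale) in GSI-treated cells; left, IkL/L minus WT in CDPs and MDPs; right, CDP minus MDP in IkL/L and WT cells; bars are the SE of the fit. Among the CD209 genes, *Cd209d* reaches 4.52 and *Cd209a* 4.51 between stages, *Clec4g* exceeds *Cd209a* between genotypes in CDPs (1.19 and 1.01), and *Cd209b*, *Cd209f* and *Cd209g* lie near 0 in both panels.

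Of the other genes of the mannose receptor family, *Ly75* (DEC-205, an endocytic receptor of cDCs) rose in IkL/L CDPs. It was at 7.25 and 7.27 in GSI-treated IkL/L CDPs, against 4.81 and 4.61 in GSI-treated WT CDPs (log2 difference 2.55, adjusted p = 1.56e-04). With vehicle the difference was 2.20 (adjusted p = 5.78e-04). In GSI-treated MDPs it was 0.53 (adjusted p = 0.649), where *Mrc1* differed by 3.23. *Mrc2* and *Pla2r1* lay between 3.36 and 4.30 in every array, and neither passed in any genotype comparison. These values were below every array median, so whether the 2 genes were detected cannot be told.

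Of 20 other carbohydrate-binding C-type lectins measured, 1 rose and 0 fell in GSI-treated IkL/L CDPs (median log2 difference 0.25, against -0.01 over all genes) and 1 rose and 0 fell in GSI-treated IkL/L MDPs (median 0.46, against -0.02). Over all genes, 2.15% were called in CDPs and 0.115% in MDPs. *Clec4a4* (DCIR2) was 3.37-fold higher in CDPs (adjusted p = 0.015) and *Clec4n* (Dectin-2) 8-fold higher in MDPs (adjusted p = 0.0312). Genes for signaling and sorting downstream of lectin receptors gave 0 calls of 12 by limma in both comparisons, with medians of 0.12 in CDPs and 0.09 in MDPs and 2 and 0 genes at an unadjusted p under 0.05.

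Of 19 genes known to respond to interleukin-4 in macrophages or DCs, 3 rose and 0 fell in GSI-treated IkL/L CDPs (median 0.24). Of all genes, 2.15% were called there in either direction. In GSI-treated MDPs 0 were called (median 0.08, 2 at an unadjusted p under 0.05), against 0.115% of all genes. The 3 were *Ccl22*, a chemokine of mature DCs (21.7-fold, adjusted p = 8.83e-05), *Pdcd1lg2*, which encodes PD-L2 (3.76-fold, adjusted p = 9.89e-04), and *Il1rn*, which encodes the interleukin-1 receptor antagonist (2.71-fold, adjusted p = 0.0127). With vehicle, *Ccl22* was also higher in IkL/L MDPs (4.05-fold, adjusted p = 0.0432). *Pdcd1lg2* had a mean of 5.73 in GSI-treated IkL/L CDPs and between 3.53 and 3.95 in the other 7 groups. *Mgl2*, a galactose-binding lectin of such macrophages, was 3.46-fold higher in GSI-treated IkL/L MDPs (adjusted p = 0.618) and 5.56-fold higher in CDPs (adjusted p = 0.0963).

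Of the 12 genes of tissue-resident and marginal zone macrophages, 1 rose in GSI-treated IkL/L CDPs, *Timd4*, a phosphatidylserine receptor (22.5-fold, adjusted p = 2.28e-04), and 0 did in MDPs, also at an unadjusted p under 0.05. Of 21 monocyte and macrophage genes, 0 were called by limma in CDPs (3 at an unadjusted p under 0.05), where 2.15% of all genes were called. The median log2 differences of both lists in CDPs were 0.35 and 0.28.

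Likeness to each gene was measured by Pearson's r over the 16 arrays, which share groups and replicate spread, among genes with an SD of at least 0.3. *Cd209a* was most like *Klrd1* (0.981), *Dab2* (0.977) and *Slamf7* (0.974), and *Cd209d* most like *Clec4g* (0.969), its neighbor, *Klrb1b* (0.968) and *Rgl1* (0.964). *Cd209e* was most like *Timp1* (0.979), *Lmna* (0.974) and *Aqp3* (0.951). The closest genes of *Mrc1* reached lower values, with *Hfe* at 0.884, *Prnp* at 0.880 and *Gm11545* at 0.877, and those of *Cd209b* were *Prima1* (0.859), *Gfra2* (0.828) and *Foxo1* (0.811). For *Cd209b* the rank correlations were lower (Spearman's rho 0.600, 0.565 and 0.685), with 1 array at 4.08 and the rest at 3.72 or below. Among the genes themselves, *Cd209a* and *Cd209d* had an r of 0.928 and *Cd209d* and *Cd209e* of 0.845, while *Mrc1* ranged from 0.387 with *Cd209b* to 0.728 with *Cd209e*.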

How the data were processed

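The authors summarized and normalized the arrays by RMA in Affymetrix Expression Console 1.4.1, per the labels, and the deposited values are log2 signals. Values ranged from 2.55 to 13.46, with no centring by gene or array. For the genome build of the probes, the sources used here give none. Of 28188 probe sets, 21789 had 1 symbol in the platform annotation, 1621 several and 4778 none, and 19938 genes were tested without a filter on signal (where a gene had several probe sets, the brightest on average was taken).

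In R 4.3.3, limma 3.58.1 fitted 1 model of 8 group means to all 16 arrays (8 residual and 2.35 prior degrees of freedom). All tests were two-sided. Adjusted p values (Benjamini-Hochberg) cover all genes tested, and those under 0.05 were called. For 2 arrays against 2, the smallest p of an exact permutation test is 0.333. Arrays without overlap reach that value, so lack of overlap alone is no call. Its share over all genes was not counted. The study gives 2 mice per condition but not whether arrays with the same number share a mouse, so p values measure the spread between these arrays. The 2 arrays per group limit the precision, and the table holds no measure of signal over background. The fit was tested on simulated data. The genes and gene lists were chosen with earlier results of these data known. Named genes were the 5 receptors, the 3 genes most like each, all measured cluster neighbors and mannose receptor family genes, and from other lists up to 3 genes past the threshold with the largest change, otherwise up to 2. *Cyp1b1* was named after its values were seen. Alternatives were each array left out, the replicate number as a block, a fit of the 4 arrays compared, a filter on dim probe sets, repeated quantile normalization, array medians subtracted, eBayes with trend and robust, array weights and the mean of all probe sets of a gene.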

Additional observations from a re-analysis of the deposited data

Results flagged for a closer look

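The genotype difference itself differed between stages for 5 listed genes in GSI-treated cells, by limma's test of the difference, CDPs minus MDPs. It was larger in CDPs by 4.26 log2 units for *Ccl22* (adjusted p = 0.00387), by 3.76 for *Timd4* (adjusted p = 0.0249), by 2.02 for *Ly75* (adjusted p = 0.0233) and by 1.83 for *Pdcd1lg2* (adjusted p = 0.0396). With vehicle, the genotype difference of *Ccl22* was 3.73 in CDPs and 2.02 in MDPs, both called. For *H2-Ab1*, an MHC class II gene, the difference between stages with GSI was -3.53 (adjusted p = 0.0276). Its means in MDPs were 10.42 in IkL/L and 6.22 in WT cells, against 12.18 in IkL/L and 11.5 in WT CDPs. The test of the difference between stages called 0.231% of all genes. *Ccl22*, *Timd4* and *Pdcd1lg2* were named for their called genotype difference in GSI-treated CDPs, and *H2-Ab1* for that in GSI-treated MDPs. The test reuses those arrays, and such a choice favors a difference between stages. The p values of these genes are thus not independent of the choice. *Ly75* was named with all measured genes of the mannose receptor family.

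*Cd209a* and *Cd209d* were flagged because their WT arrays moved in opposite directions with GSI, up in CDPs and down in MDPs, without overlap. How many of all genes meet this rule was not counted. For *Cd209a* in CDPs the gap between the treatments was 0.0013, and its GSI effect of 0.53 ranged from 0.045 to 1.02 without 1 array. The difference of the GSI effects was 1.05 for *Cd209a* and 1.57 for *Cd209d*, and neither passed limma's test over all genes (unadjusted p = 0.0852 and 0.00732).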

How the results depend on the processing

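Of 1120 values for the 5 genes without 1 array, 1061 kept direction and side of the threshold, 29 lost a call, 8 gained one and 22 changed sign. The lowest and highest values of those that changed sign were -0.177 and 0.066 (*Cd209a*, GSI averaged), -0.013 and 0.73 (*Cd209a*, GSI in IkL/L CDPs), -0.36 and 0.53 (*Cd209e*, GSI in IkL/L MDPs), -0.068 and 0.083 (*Cd209e*, GSI in WT MDPs), -0.27 and 0.80 (*Mrc1*, GSI in IkL/L MDPs), and -0.82 and 0.24 (*Mrc1*, CDP against MDP in vehicle-treated IkL/L cells). For *Cd209b* they were -0.071 and 0.43 (GSI, IkL/L CDPs), -0.005 and 0.065 (GSI, IkL/L MDPs), -0.038 and 0.174 (GSI, WT CDPs), -0.11 and 0.39 (genotype, GSI-treated CDPs), -0.149 and 0.014 (genotype, GSI-treated MDPs), -0.038 and 0.125 (CDP against MDP, GSI-treated WT cells), -0.10 and 0.40, and -0.187 and 0.025 (difference of GSI effects, IkL/L and WT), and -0.041 and 0.46 (difference of genotype effects). The *Cd209e* GSI effect in WT MDPs was -0.042 with repeated quantile normalization and -0.029 with array medians subtracted.

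Genes called of the 5 ranged without 1 array from 0 to 1 for genotype in GSI-treated MDPs, GSI in IkL/L CDPs, GSI in WT CDPs and CDP against MDP in vehicle-treated WT cells, from 0 to 2 for GSI averaged and from 1 to 2 for vehicle-treated IkL/L cells. A fit of the 4 arrays gave 0 for genotype in GSI-treated CDPs and MDPs and for GSI in WT CDPs. For CDP against MDP it gave 0 in GSI-treated WT cells and 1 in vehicle-treated IkL/L cells. The counts for CDP against MDP with vehicle come from the arrays that chose the genes. They are descriptions and give no support, here and among the values without 1 array above. GSI-treated MDPs gave 2 with the filter and with trend and robust. GSI in IkL/L CDPs gave 1 with the filter, trend and robust, and array weights, and GSI averaged gave 2 with the filter and with trend and robust. The exact permutation p of GSI averaged was under 0.05 for *Mrc1* (0.0108) and *Cd209e* (0.0293). It was not adjusted over all genes, so these are not calls. GSI in WT CDPs gave 0 with quantile normalization, medians subtracted and array weights. The cause was not tested beyond the smaller number of arrays.

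Arrays with the same replicate number did not deviate together in all pairs of groups (r from -0.25 to 0.66, over 0.1 in 17 of 28), but in all 6 pairs of CDP groups they did (r from 0.348 to 0.658). The labels do not say what a number marks. With the number as a replicate block, GSI in IkL/L CDPs gave 1 (*Cd209e*) and GSI averaged gave 2 of the 5 genes, and calls over all genes changed to 176, against 61 without it, for GSI averaged.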

Other observations

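Some genes of DC lineages were called higher after culture of CDPs than of MDPs. Of 15 measured pDC genes, 5 were called higher and 0 lower in GSI-treated IkL/L CDPs than in MDPs (median log2 difference 0.85, against -0.02 over all genes), and 2 were higher and 0 lower in GSI-treated WT cells (median 0.99), where 2.42% and 0.176% of all genes were called. Of the 15, 13 had a higher mean in IkL/L and 12 in WT CDPs. Of 19 cDC genes, 6 were called higher in GSI-treated IkL/L cells (median 1.09) and 3 in GSI-treated WT cells (median 0.61), with 0 lower in either. Of 10 MDP and CDP genes, 8 had a lower mean with GSI than with vehicle when averaged over the 4 populations (median -0.24), and 1 was called.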
